A study of Mus musculus with 15 samples.

Results

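The genes described here encode the enzymes that make, break down and respond to cyclic AMP (cAMP), together with the CREB transcription factors at the end of the pathway, in the thalamus of mice given cocaine or saline. They were chosen by symbol: adenylyl cyclases (Adcy), cyclic nucleotide phosphodiesterases (Pde), catalytic (Prkac) and regulatory (Prkar) subunits of protein kinase A (PKA), the factors Creb1, Crem, Atf1, Atf2 and Atf4, and the CREB coactivators Crtc1, Crtc2 and Crtc3. There were 45 such genes among 25080 in the deposited tables, and 37 of them, with at least 1 TPM (transcript abundance scaled to a fixed library total) in 3 libraries, were tested among 13471 genes in all. The study asked how repeated cocaine changes transcription in the thalamus and whether Maged1, a gene on the X chromosome, takes part. Each library was made from the whole microdissected thalamus of male mice 2 to 4 months old, without sorting of cells. The control mice carried a floxed Maged1 allele without Cre (Maged1 Loxp), and the cKO mice carried the same allele with Vglut2-Cre, which is active in glutamatergic neurons that express Vglut2, so that other thalamic cells keep Maged1. After 3 days of saline injections in all mice, 5 days of injections followed, of 20 mg/kg cocaine in the cocaine groups and of saline in the others. Saline libraries numbered 4 for the controls and 4 for the cKO mice, cocaine libraries 4 for the controls and 2 for the cKO mice, and 1 further cKO cocaine sample was not analysed here. The number of reads behind each value is unknown, since TPM keep no depth.

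Cyclic AMP is made from ATP by adenylyl cyclases, which are switched on or off by G proteins and, for some family members, by calcium and calmodulin. It is removed by phosphodiesterases, and in between it binds the regulatory subunits of PKA and so frees the catalytic subunits. Freed PKA phosphorylates many proteins, among them the factor CREB, which binds the cAMP response element (CRE) in promoters and recruits coactivators. In neurons this pathway couples neurotransmitter receptors to excitability and to the transcription of activity-dependent genes.

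The labels were checked first with Maged1. Its level after saline was 164 to 189 TPM in control and 69.2 to 89.4 TPM in cKO libraries, but after cocaine it was 49.7 to 76.7 TPM under the control label and 140.4 and 144 TPM under the cKO label. The level of Maged1 thus followed the labels after saline and went against them after cocaine. The genotype tag also disagreed with the title in 4 saline libraries, 2 of each group, and groups were taken from titles. In these, Maged1 was 168 and 166 TPM in control saline replicates 3 and 4. It was 89.4 and 86.8 TPM in cKO saline replicates 1 and 2, following the titles and not the tags. Every direction that depends on which cocaine libraries are control and which are cKO therefore rests on labels that Maged1 contradicts, whereas the comparison of all cocaine with all saline libraries (the mean of the effects under both genotype labels) would be the same if the 2 cocaine labels were exchanged. That comparison still rests on the treatment labels, which were not checked. The study's methods count more cocaine than saline samples, and the titles more saline than cocaine samples. Thalamic marker genes were all detected (10 of 10 tested) and their summed level was 401 to 735 scaled TPM in the 14 libraries. It was not even between groups: 3 of the 10 passed as higher with cocaine over both labels (median log2 fold change 0.22 against 0.00 for all genes) and 3 under the control label (median 0.24; sums of 401 to 551 after saline and of 528 to 735 after cocaine), and the part of this in the members' values was not tested. All levels below are TPM after scaling by the trimmed mean of M values (TMM), and fold changes are on the log2 scale with 0.5 added to each value. In the TPM as deposited, the median gene was lower with cocaine by a log2 difference of -0.34, both under the control label and over both labels, so a change is a change relative to that shift. A lower level can be fewer cells of a type or less RNA per cell, and these cannot be told apart in whole tissue.

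Over all cocaine against all saline libraries, 12 of the 37 tested genes passed limma's test (Benjamini-Hochberg adjusted p under 0.05). Of these, 5 were higher (Prkaca, Prkar1b, Crtc2, Pde4a and Adcy8) and 7 lower (Prkar1a, Prkacb, Crem, Pde8b, Pde7a, Atf2 and Creb1). The share passing among all genes tested was 32.3%, with 15.8% higher and 16.5% lower, so 12 of 37 (32.4%) was close to the background. Under the control label alone 9 of 37 passed, 5 higher and 4 lower, against a background of 23.6% (13.3% higher and 10.3% lower). Under the cKO label 8 of 37 passed, 2 higher and 6 lower, against 20.2% (8.5% higher and 11.7% lower). The changes were small: with a fold change of at least 0.5 on the log2 scale also required, 0 members remained over both labels (background 2.06%), 0 under the control label (3.09%) and 1, Adcy1, under the cKO label (3.07%). Between genotype labels 0 members passed, after saline (background 0.156%) or after cocaine (0.052%), where 10 and 4 members had an unadjusted p under 0.05 in limma. The effect of cocaine differed between the genotype labels for 2 members, Adcy1 and Atf4 (background 1.28%, and 0.824% with a fold change of at least 0.5, which Adcy1 alone of the members passed). Leaving out cKO cocaine replicate 2 lowered the count under the cKO label from 8 to 1 and the count over both labels from 12 to 7, and without cKO saline replicates 1 or 3 or cKO cocaine replicate 1 the count under the cKO label was 5, 5 and 4.

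**Figure D1:**
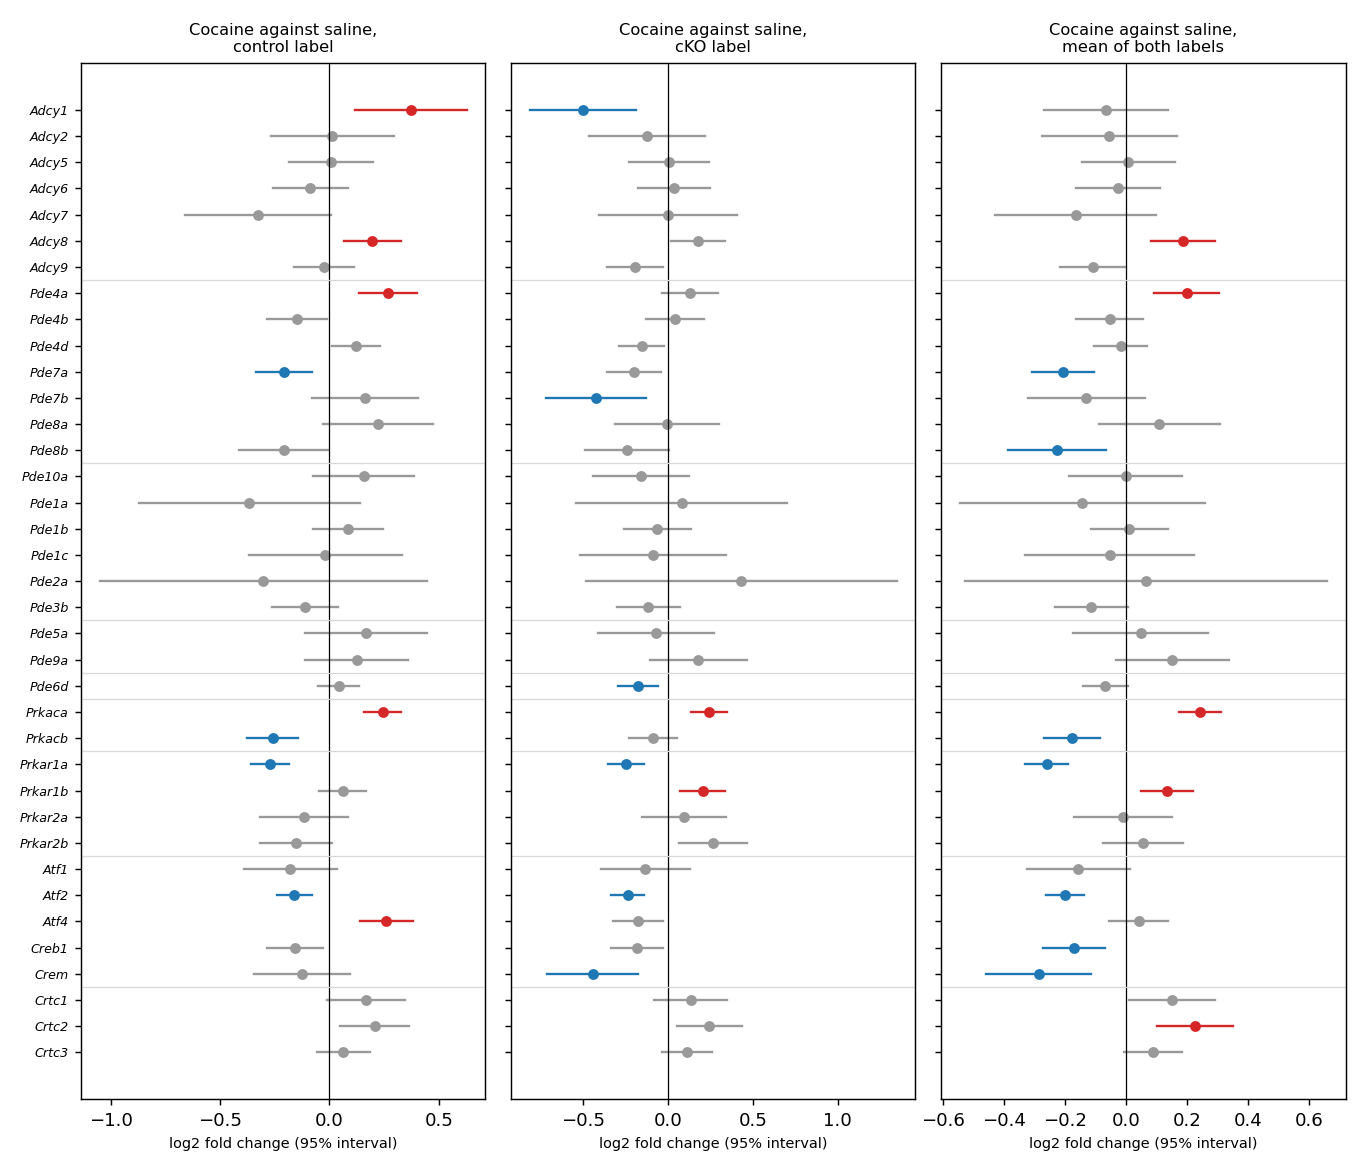
Log2 fold change of cocaine against saline with its 95% interval for the 37 tested genes, under the control label, under the cKO label and for the mean of both labels (the 3 panels have their own x scales); grey lines separate families, and red and blue points passed the test as higher and lower on TMM-scaled TPM, while grey points did not. Prkaca was to the right of 0 and Prkar1a to the left in all 3 panels, and Adcy1 changed side between the first and the second; in the TPM as deposited the red points of the third panel lie below 0, and Prkaca does so in all 3.

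Of the 6 tested PKA subunit genes 4 passed over both labels, against 32.3% of all genes. Prkaca, which encodes the catalytic subunit Calpha, was higher after cocaine on the scaled values, and Prkacb, which encodes Cbeta, was lower. Among the regulatory subunits, Prkar1a (RIalpha, found in most cells) was lower and Prkar1b (RIbeta, a mainly neuronal form) was higher; both rises were falls in the TPM as deposited. The promoters of these 4 genes are shown because the pairs moved in opposite directions and because PKA acts on CRE-bound factors. Each sequence is the window from 250 bases before to 50 bases after an annotated transcript start (RefSeq, GRCm38.p6), read 5′ to 3′ on the gene's strand, with every TGACG or CGTCA in capitals; these are the 5-base ends of the CRE, TGACGTCA, and overlap within it.
Prkar1a: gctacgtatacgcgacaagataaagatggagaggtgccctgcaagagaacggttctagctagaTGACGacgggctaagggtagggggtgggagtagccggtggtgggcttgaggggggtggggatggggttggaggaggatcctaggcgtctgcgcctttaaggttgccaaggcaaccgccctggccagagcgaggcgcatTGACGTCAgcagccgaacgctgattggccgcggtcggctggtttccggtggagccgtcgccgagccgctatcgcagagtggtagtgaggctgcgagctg
Prkaca: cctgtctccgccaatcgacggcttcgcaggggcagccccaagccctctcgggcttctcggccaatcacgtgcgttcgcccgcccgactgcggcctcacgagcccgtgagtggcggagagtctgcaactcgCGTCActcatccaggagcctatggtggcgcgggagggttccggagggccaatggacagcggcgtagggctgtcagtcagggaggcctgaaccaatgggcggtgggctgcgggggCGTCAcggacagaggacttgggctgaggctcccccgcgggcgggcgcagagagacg
Prkacb: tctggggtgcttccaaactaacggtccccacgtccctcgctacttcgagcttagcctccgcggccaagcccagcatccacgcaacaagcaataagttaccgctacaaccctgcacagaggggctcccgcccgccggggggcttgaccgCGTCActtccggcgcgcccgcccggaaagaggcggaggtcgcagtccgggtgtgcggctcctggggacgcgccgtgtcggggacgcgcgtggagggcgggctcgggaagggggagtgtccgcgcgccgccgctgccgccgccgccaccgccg
Prkar1b: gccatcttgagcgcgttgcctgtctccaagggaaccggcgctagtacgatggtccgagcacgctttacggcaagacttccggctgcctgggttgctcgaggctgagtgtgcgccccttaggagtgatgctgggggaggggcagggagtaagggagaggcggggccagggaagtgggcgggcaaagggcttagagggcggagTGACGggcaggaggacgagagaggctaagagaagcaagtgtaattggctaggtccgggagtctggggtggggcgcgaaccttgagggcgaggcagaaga

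The Prkar1a window lies at chr11:109650699-109650998 (plus strand) and holds the whole CRE, which starts 49 bases before the transcript start. The windows of Prkaca at chr8:83972728-83973027 (plus strand), Prkacb at chr3:146812897-146813196 (minus strand) and Prkar1b at chr5:139149952-139150251 (minus strand) hold the 5-base motif without the full element, at 2, 1 and 1 positions. Promoter windows were matched for 35 of the 45 genes, and Prkar1a was the only one of them with a full CRE. Over all genes with a window, 2.03% had a full CRE and 23% the 5-base motif on either strand, against 15 of the 35 members with the latter. Members have more windows per gene, and counted by window the shares with the 5-base motif were 23.9% of 71 member windows and 20.8% of all windows. These are matches of letters in a window and were not tested as binding sites. Several of these genes have more than 1 window (6 for Prkar1a), and for each the window with the CRE or with the most motif matches was printed.

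Prkaca (chr8:83972993-83996443, plus strand) stood after saline at 77.04, 82.3, 77.01 and 76.7 scaled TPM under the control label and at 82.9, 75.4, 78.8 and 78.3 under the cKO label. After cocaine it stood at 90.8, 90.4, 92.1 and 97.8 under the control label and at 91.95 and 94.7 under the cKO label. All 6 cocaine libraries were above all 8 saline libraries after scaling. The log2 fold change was 0.24 (SE 0.03, adjusted p = 0.000126 by limma) over both labels, with 0.24 under either label alone, but it was -0.13 over both labels in the TPM as deposited. The call under the cKO label was lost with GC content and length trends removed (0.12, adjusted p = 0.163) and without cKO cocaine replicate 2 (adjusted p = 0.0633).

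Prkacb (chr3:146729574-146812990, minus strand) stood after saline at 69.6, 75.5, 67.7 and 65.3 scaled TPM under the control label and at 68.3, 63.9, 64.7 and 62.4 under the cKO label. After cocaine it was 54.3, 59.7, 62.3 and 55.5 under the control label and 61.8 and 59.8 under the cKO label. Every cocaine library was below every saline library, the nearest being control cocaine replicate 3 (62.33) and cKO saline replicate 4 (62.38). Cocaine against saline gave a log2 fold change of -0.26 (SE 0.05, adjusted p = 0.00469) under the control label and -0.18 (SE 0.04, adjusted p = 0.00719) over both, while under the cKO label it was -0.09 and did not pass.

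The ratio of the 2 catalytic transcripts within a library does not depend on scaling. Prkaca to Prkacb ran from 1.09 to 1.25 in the 8 saline libraries and from 1.48 to 1.76 in the 6 cocaine libraries, and these ranges were apart. The ratio was chosen after the values were seen, and no test was made of it. It can still carry a library's trend with GC content, which was not removed from it. The longest transcript had a GC content of 54.9% for Prkaca and 45.4% for Prkacb.

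Prkar1a (chr11:109649405-109669656, plus strand) had the highest level of the 37 genes in control saline, at 177, 161, 163 and 158 scaled TPM after saline under the control label and 161, 148, 160.2 and 157 under the cKO label. After cocaine it was 137, 138, 137 and 134 under the control label and 131 and 133 under the cKO label. All 6 cocaine libraries were below all 8 saline libraries. Its log2 fold change was -0.27 (SE 0.04, adjusted p = 0.000807) under the control label, -0.25 (SE 0.05, adjusted p = 0.00493) under the cKO label and -0.26 (SE 0.03, adjusted p = 9.35e-05) over both.

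Prkar1b (chr5:139017306-139150001, minus strand) stood at 135, 142, 129.7 and 131 scaled TPM in control saline, 130.1, 144, 141 and 146 in control cocaine, 132, 120.3, 132 and 121 in cKO saline libraries and 140.3 and 151 in those of cKO cocaine. The groups overlapped under the control label, and did not under the cKO label. Under the cKO label the log2 fold change was 0.20 (SE 0.06, adjusted p = 0.0331), a call lost without cKO saline replicate 2 or 4 or cKO cocaine replicate 2 (adjusted p up to 0.273) and with GC content and length trends removed (0.08, adjusted p = 0.452). It was 0.13 (SE 0.04, adjusted p = 0.0206; 0.127 without cKO cocaine replicate 2) over both, with -0.24 over both in the TPM as deposited. Prkar1b to Prkar1a ran from 0.76 to 0.88 in the saline libraries and from 0.952 to 1.14 in the cocaine libraries, again apart and without a test. GC content trends were not removed from this ratio either, and the longest transcripts had 55.9% (Prkar1b) and 45.7% (Prkar1a) GC. Prkar2a and Prkar2b, which encode the type II regulatory subunits bound by anchoring proteins, were at 11.99 to 18.1 and 9.31 to 13.7 scaled TPM and did not pass in any comparison on the scaled values, although with GC content and length trends removed Prkar2b passed as higher under the cKO label (0.39, SE 0.09, adjusted p = 0.0208). Their log2 fold changes over both labels were -0.01 (95% interval -0.17 to 0.15) and 0.06 (-0.08 to 0.19).

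**Figure D2:**
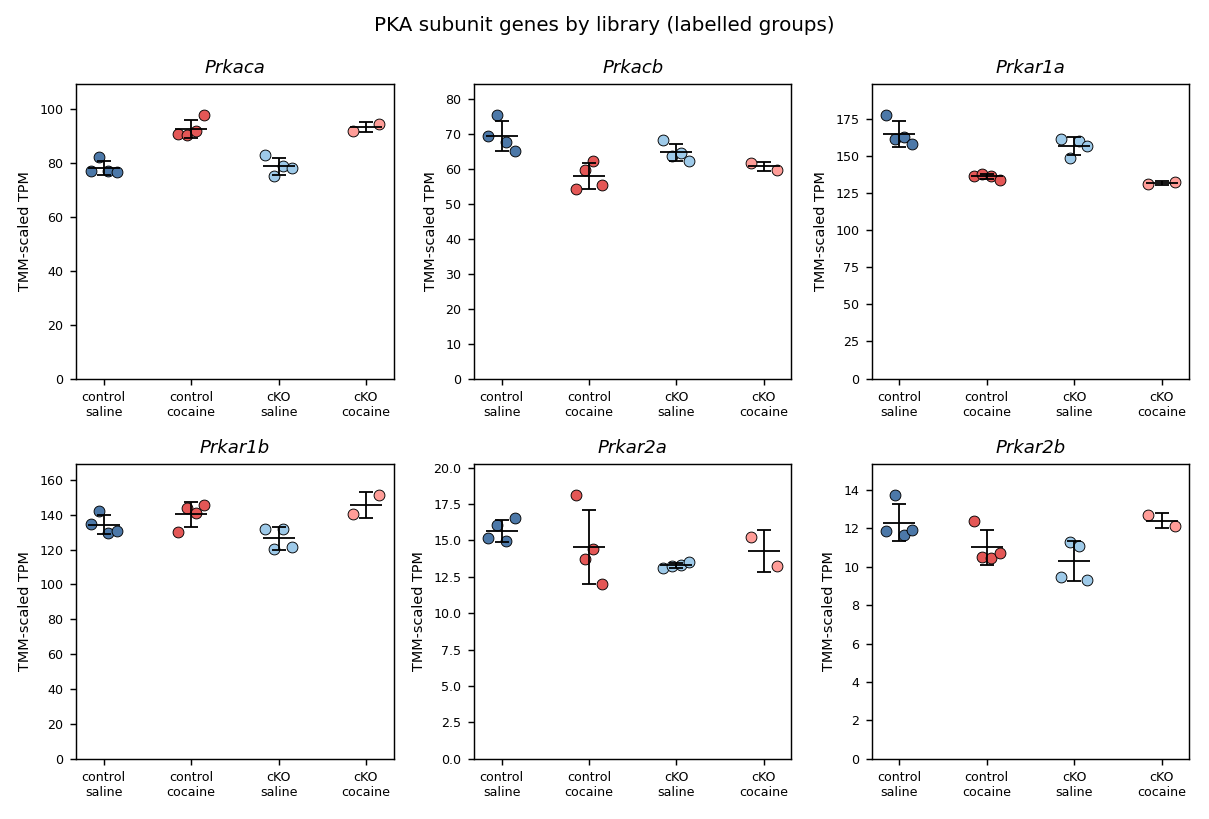
TMM-scaled TPM of the 6 PKA subunit genes (y axis, from 0) in each of the 14 libraries by labelled group (x axis); points are libraries and bars give the mean ± SD. Prkaca was at 90.4 to 97.8 in the cocaine libraries against 75.4 to 82.9 in the saline libraries, Prkar1a was below all saline libraries in each cocaine library, and Prkar2a and Prkar2b overlapped between treatments; in the TPM as deposited Prkaca and Prkar1b were lower with cocaine.

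Adenylyl cyclases numbered 9, of which 7 were tested, and 2 of these passed in at least 1 of the 6 comparisons. Of the 7, 1 passed over both labels (background 32.3%), 2 under the control label (23.6%) and 1 under the cKO label (20.2%). Adcy1, a cyclase stimulated by calcium and calmodulin (chr11:7063489-7178506, plus strand), had the highest level of the family. It stood at 46.4, 36.0, 46.6 and 43.2 scaled TPM in control saline and at 50.3, 53.0, 54.9 and 65.3 in control cocaine libraries. Under the cKO label it stood at 67.6, 60.8, 55.8 and 79.3 after saline and at 41.7 and 50.8 after cocaine. Adcy1 was thus higher with cocaine under the control label and lower under the cKO label, with no overlap in either. The log2 fold changes were 0.37 (SE 0.12, adjusted p = 0.0385; 0.01 in the TPM as deposited) and -0.50 (SE 0.15, adjusted p = 0.0296), and they differed by -0.87 (SE 0.19, adjusted p = 0.046 for the interaction in limma). Over both labels it was -0.06 (adjusted p = 0.643), and with the labels of the cocaine groups exchanged the difference between labels was -0.33 (adjusted p = 0.675) and neither label gave a call. The interaction was lost (adjusted p up to 0.2) without any 1 of 11 of the 14 libraries, all but control cocaine replicate 1 and cKO saline replicates 3 and 4, with the difference between -1.01 and -0.73. Under the control label the call was lost without saline replicate 2 or 4 or cocaine replicate 2, 3 or 4 of that label (adjusted p up to 0.111), and under the cKO label without cKO saline replicates 1 or 4 or either cKO cocaine library (up to 0.222). In saline, all 4 cKO libraries were above all 4 control libraries (log2 difference 0.60, SE 0.12), but with an adjusted p of 0.0643 this did not pass. The library with the highest Adcy1, cKO saline replicate 4 (79.3), also had the highest sum of 8 cortical and hippocampal markers, at 120.3 scaled TPM against 61.2 to 103.9 in the others. Their cortical transcription factor genes stood apart there: Neurod2 was 8.44 against at most 1.35, Emx1 1.38 against at most 0.0786 and Neurod6 1.32 against at most 0.306. The other cKO saline libraries, with Adcy1 at 67.6, 60.8 and 55.8 scaled TPM, had marker sums of 81.0, 80.9 and 79.7. The part of such tissue in the Adcy1 values was not tested. As given above, the call under the cKO label was lost without cKO saline replicate 4 but also without other libraries, and the interaction was not lost without that replicate.

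Adcy8, the other cyclase of the tested set known to respond to calcium and calmodulin (chr15:64697084-64922296, minus strand), stood at 12.8, 13.7, 13.6 and 14.2 scaled TPM in control saline and 13.2, 14.3, 13.8 and 12.4 in cKO saline libraries. With cocaine it was 17.5, 14.8, 14.4 and 16.1 under the control label and 15.02 and 15.4 under the cKO label. All cocaine libraries were above all saline libraries, the nearest pair being 14.4 and 14.3. Over both labels Adcy8 had a log2 fold change of 0.19 (SE 0.05, adjusted p = 0.0102; 0.0513 without cKO cocaine replicate 2), and of -0.17 in the TPM as deposited. The other tested cyclases (Adcy2, Adcy5, Adcy6, Adcy7 and Adcy9) did not pass in any comparison on the scaled values, with log2 fold changes over both labels from -0.16 (Adcy7) to 0.01 (Adcy5). Adcy4 and Adcy10, the soluble cyclase, stayed below 1 TPM in every library.

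**Figure D3:**
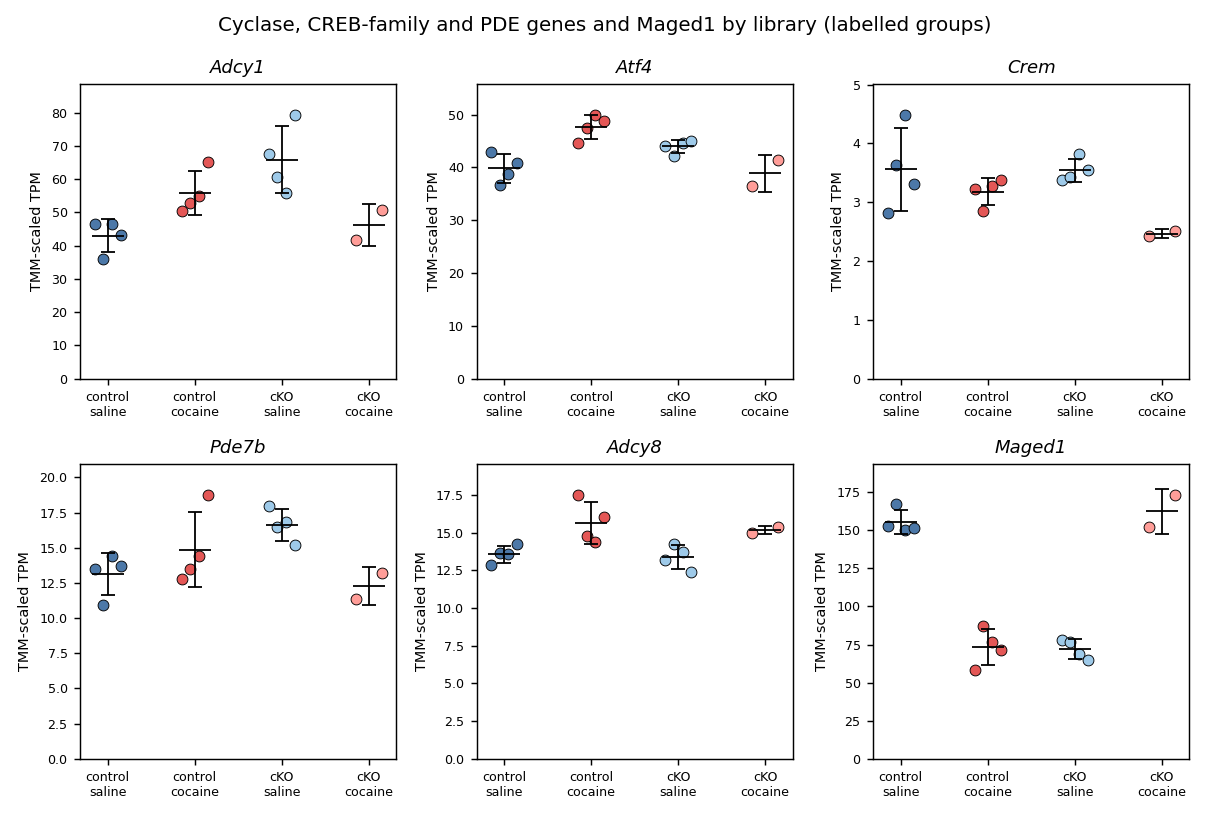
TMM-scaled TPM (y axis, from 0) of Adcy1, Atf4, Crem, Pde7b, Adcy8 and Maged1 in each library by labelled group (x axis); points are libraries and bars give the mean ± SD. Adcy1 and Atf4 were higher in control cocaine than in control saline and lower in cKO cocaine than in cKO saline, the difference between labels passing the test for these 2 members, and Maged1 was high in control saline and cKO cocaine; in the TPM as deposited Atf4 was lower with cocaine under both labels.

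Phosphodiesterases numbered 21, of which 15 were tested. Over both labels 3 of the 15 passed (20%, against 32.3% of all genes): 3 of 7 selective for cAMP (Pde4, Pde7 and Pde8), 0 of 6 that cleave both cAMP and cGMP and 0 of 2 selective for cGMP. The difference between these classes was not tested. Pde4a (chr9:21165714-21213248, plus strand), of the family inhibited by rolipram, stood at 13.7, 14.9, 15 and 15.1 scaled TPM in control saline and 15.4, 18.3, 18.4 and 19.1 in control cocaine libraries. Under the cKO label it stood at 16.5, 16.1, 15.03 and 16.04 after saline and at 17 and 17.9 after cocaine. Both cocaine groups were above the saline group of the same label, but control cocaine replicate 1 was lower than 3 of the cKO saline libraries. Pde4a had a log2 fold change of 0.27 (SE 0.06, adjusted p = 0.00824) under the control label and 0.20 (SE 0.05, adjusted p = 0.00777) over both, with -0.16 over both in the TPM as deposited.

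Pde7a (chr3:19223108-19311322, minus strand) was low, at 2.60, 2.94, 2.85 and 2.87 scaled TPM in control saline and 2.89, 3.1, 3.07 and 2.66 in cKO saline libraries. It was 2.29, 2.27, 2.43 and 2.46 in control cocaine and 2.53 and 2.42 in cKO cocaine libraries, below every saline library. Over both labels its log2 fold change was -0.21 (SE 0.05, adjusted p = 0.00529). Pde7b (chr10:20398004-20725078, minus strand) was lower with cocaine under the cKO label, from 18.0, 16.5, 16.9 and 15.2 to 11.3 and 13.2 scaled TPM (log2 fold change -0.42, SE 0.14, adjusted p = 0.0456). Under the control label it was 13.5, 11.0, 14.4 and 13.7 after saline and 12.8, 13.5, 14.4 and 18.7 after cocaine, where the groups overlapped. The call for Pde7b under the cKO label was lost without any 1 of 9 libraries (control saline 1 or 4, control cocaine 2 or 3, cKO saline 1, 2 or 3, either cKO cocaine), with an adjusted p of up to 0.267.

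Pde8b (chr13:95024454-95250336, minus strand), a high-affinity enzyme, stood at 5.27, 6.26, 5.45 and 5.47 scaled TPM in control saline, 4.13, 5.75, 4.63 and 4.71 in control cocaine, 5.68, 6.18, 5.26 and 6.85 in cKO saline libraries and 4.98 and 4.97 in those of cKO cocaine. Control cocaine replicate 2 lay among the saline libraries and the other 5 cocaine libraries below them. Over both labels the log2 fold change was -0.23 (SE 0.07, adjusted p = 0.0327), and the call was lost without any 1 of 7 libraries (control saline 2, control cocaine 3 or 4, cKO saline 2 or 4, either cKO cocaine), with an adjusted p of up to 0.103. Pde4b, the cAMP-selective enzyme with the highest level in control saline, stood at 19.1, 21.0, 21.8 and 21.2 scaled TPM there and at 16.8 to 21.8 in the other libraries, and its log2 fold change of -0.05 over both labels (95% interval -0.16 to 0.06) did not pass. Neither did Pde4d or Pde8a in any comparison.

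Among enzymes that cleave both nucleotides Pde1b, which is activated by calcium and calmodulin, was highest, at 39.1, 38.4, 42.3 and 41.2 scaled TPM in control saline libraries and 38.8 to 48.5 elsewhere (log2 fold change 0.01 over both labels, 95% interval -0.12 to 0.14). Pde9a led the cGMP-selective enzymes, with 5.34, 7.97, 6.58 and 6.40 scaled TPM in control saline and 5.88 to 8.23 elsewhere (0.15, -0.03 to 0.34). Pde6d encodes a prenyl-binding protein that carries lipid-modified proteins and is not itself an enzyme. It stood at 14.8, 14.98, 15.5 and 14.5 scaled TPM in cKO saline libraries and at 13.4 and 12.95 in cKO cocaine libraries (log2 fold change -0.18, SE 0.05, adjusted p = 0.0352; up to 0.214 without cKO saline 1, 2 or 3 or either cKO cocaine library), and it did not pass under the control label. The filter on low values was passed narrowly by Pde5a (9 libraries at 1 TPM or more, range 0.764 to 1.36) and by Pde1c (13 libraries). Just outside it were Pde11a (2 libraries, range 0.217 to 1.41), Pde4c (highest 0.988) and Pde3a (highest 0.983), and the photoreceptor enzymes Pde6a, Pde6b and Pde6c did not reach 0.1 TPM in any library.

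Some phosphodiesterases varied more between libraries than between groups. Their values are set here beside markers of tissue next to the thalamus, and no relation between the 2 was tested. Pde2a, Pde1a, Pde10a and Adcy5 are named here after their values were seen. Pde2a, a cGMP-stimulated enzyme, was 32.8 scaled TPM in control cocaine replicate 1 and 7.39 in control cocaine replicate 4, the highest and lowest of all 14 libraries. The summed level of 8 habenula markers was 186 and 11.2 scaled TPM in the same libraries, and in cKO saline replicate 1, with a marker sum of 11.1, Pde2a was 9.31. In the other 11 libraries the marker sums ran from 24.4 to 84.2 and Pde2a from 11.8 to 23.8. Pde1a was likewise highest (7.56) and lowest (2.36) in control cocaine replicates 1 and 4. Prkar2a was too, at 18.1 and 11.99. Habenula markers ran from 57.1 to 84.2 in control saline and from 11.1 to 55.2 in cKO saline libraries, where Pde2a differed by a log2 fold change of -0.59 (SE 0.35) and Pde1a by -0.56 (SE 0.23), neither passing. In the GENCODE M21 gene models, 64.3% of the exon bases of Pde2a are shared with Gm45837 on the same strand, so that reads could be assigned to either.

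Striatal markers stood out in 1 library: their summed level was 81.2 scaled TPM in cKO saline replicate 2 and 23.7 to 45.7 in the others. That library also had the highest Pde10a (15.7 against 8.95 to 12.4), the highest Pde1b (48.5 against 38.4 to 48.4) and the highest Adcy5 (37.7 against 28.6 to 37.2), genes with high expression in striatal neurons. The next highest value of each, 12.4, 48.4 and 37.2, was that of control cocaine replicate 4, the library with the lowest striatal sum (23.7). Control saline replicate 1, with the next highest striatal sum (45.7), had the lowest Pde10a (8.95). The sum of hypothalamic markers was 136 to 470 scaled TPM in control saline against 4.74 to 129.7 in control cocaine libraries, and that of oligodendrocyte markers was 1517 to 1818 in control saline against 1669 to 2568 in control cocaine libraries. Ependymal markers summed to 4.90 to 22.8 scaled TPM in cKO saline and 28.5 to 43.0 in cKO cocaine libraries (median log2 fold change 1.05), and the habenula list had a median of 0.78 under the cKO label. Choroid plexus markers summed to 1757 scaled TPM in control saline replicate 1 and to 48.9 to 104.5 in the other libraries. That library had the highest Prkar1a (177), Pde6d (16.3) and Adcy6 (10.2) of all 14, and the calls for Prkar1a were kept without it. Reticular thalamus and GABA neuron markers summed to 19.2 in control cocaine replicate 1 and to 55.7 to 233.5 in the others. The part of such tissue in the changes under either label or over both was not tested.

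**Figure D4:**
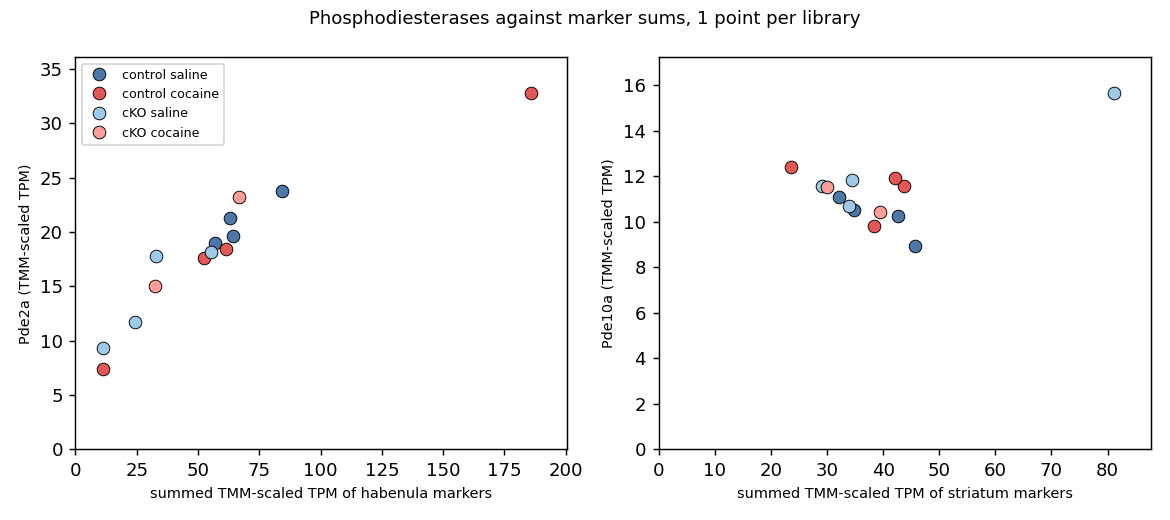
Scaled TPM of Pde2a against the summed scaled TPM of 8 habenula markers (left) and of Pde10a against that of striatal markers (right), 1 point per library, coloured by labelled group, both axes from 0. The 2 libraries with the lowest habenula sums (11.1 and 11.2) had the lowest Pde2a and the library with the highest sum (186) the highest, and cKO saline replicate 2 stood apart for Pde10a.

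Of the 5 CREB and ATF factors, 3 were lower over both labels (Atf2, Creb1 and Crem) and 0 higher (background 16.5% lower and 15.8% higher). With GC content and length trends removed 0 of these 3 passed: the log2 fold change was then -0.04 for Atf2 (adjusted p = 0.306), -0.01 for Creb1 (0.914) and -0.16 for Crem (0.188). Atf2, a factor of the same basic leucine zipper class that also binds CRE-like sites (chr2:73816509-73892639, minus strand), stood at 27.7, 28.1, 27.5 and 27.5 scaled TPM in control saline and 27.6, 27.2, 29.6 and 28.2 in cKO saline libraries. With cocaine it was 24.7, 23.5, 25.5 and 25.3 under the control label and 24.3 and 23.3 under the cKO label. No cocaine library reached the level of a saline library, and the log2 fold change was -0.20 (SE 0.03, adjusted p = 0.00028) over both labels.

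Creb1 (chr1:64532645-64604548, plus strand), the main CREB gene, was low, at 5.48, 4.99, 5.16 and 5.06 scaled TPM in control saline, 4.76, 4.42, 4.43 and 4.75 in control cocaine, 5.24, 4.71, 5.57 and 5.73 in cKO saline libraries and 4.77 and 4.44 in those of cKO cocaine. Its cocaine libraries overlapped with 1 saline library, cKO saline replicate 2. For Creb1 the log2 fold change was -0.17 (SE 0.05, adjusted p = 0.0136; 0.0828 without cKO cocaine replicate 2) over both labels, and it did not pass under either label alone. Crem, which encodes activators and the inducible repressor ICER from 1 gene, stood at 2.81, 3.64, 4.48 and 3.31 scaled TPM in control saline and 3.22, 2.86, 3.27 and 3.38 in control cocaine, which overlapped. It was 3.37, 3.43, 3.81 and 3.55 under the cKO label after saline and 2.42 and 2.52 after cocaine (log2 fold change -0.45, SE 0.12, adjusted p = 0.0241; up to 0.115 without cKO saline 3 or either cKO cocaine library). Over both labels it was -0.29 (SE 0.08, adjusted p = 0.0154; up to 0.055 without either cKO cocaine library). The tables give 1 value per gene, so the repressor and activator forms of Crem are not separated.

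Atf4, a factor of the integrated stress response (chr15:80255184-80257541, plus strand), was the second member whose response differed between labels and the most abundant factor. It stood at 43.0, 36.7, 38.7 and 40.8 scaled TPM in control saline and 44.5, 47.5, 49.9 and 48.9 in control cocaine libraries (log2 fold change 0.26, SE 0.06, adjusted p = 0.00601; -0.11 in the TPM as deposited). Under the cKO label it was 44.0, 42.2, 44.6 and 45.1 after saline and 36.4 and 41.4 after cocaine, where the difference of -0.18 did not pass. The 2 log2 fold changes differed by -0.44 (SE 0.09, adjusted p = 0.0419 for the interaction), a call lost (adjusted p up to 0.174) without any 1 of 10 libraries, the 4 exceptions being replicate 1 of either control group and replicate 2 of either cKO group. For Adcy1 and Atf4 the 2 groups with the lower means, control saline and cKO cocaine, were those with high Maged1. With the labels of the cocaine groups exchanged the difference for Atf4 was 0.15 (adjusted p = 0.698). A relation to Maged1 was not tested.

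The CRTC coactivators, which move to the nucleus when dephosphorylated and bind CREB, all had positive log2 fold changes under both labels after scaling (in the TPM as deposited, -0.11 to -0.24 over both labels), but only Crtc2 passed, and only over both labels. Crtc2 (chr3:90254163-90264125, plus strand) stood at 3.74, 4.14, 3.79 and 4.10 scaled TPM in control saline, 4.42, 4.95, 4.85 and 4.30 in control cocaine, 3.63, 4.56, 3.63 and 4.04 in cKO saline libraries and 5.02 and 4.53 in those of cKO cocaine. Among saline libraries cKO saline replicate 2 reached into the cocaine range. Its log2 fold change was 0.23 (SE 0.06, adjusted p = 0.00959; 0.0542 without cKO cocaine replicate 1), and -0.11 in the TPM as deposited. Crtc1, the most abundant of the 3, stood at 12.8, 14.8, 13.6 and 13.7 scaled TPM in control saline and 13.4 to 17.3 elsewhere (0.15, 95% interval 0.01 to 0.29, adjusted p = 0.0941). Crtc3 was at 3.51 to 4.21 and did not pass. Atf1 did not pass in any comparison.

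The members that passed differed in base composition by direction. Over both labels the 5 higher members had a GC content of the longest transcript of 50.8% to 57.2% and the 7 lower members of 39.6% to 51.2%, and over all genes tested the medians were 54.4% for higher and 43.3% for lower genes. With the trends of each library with GC content and transcript length removed, 5 members passed in place of 12 (background 19.8% in place of 32.3%). Prkaca (log2 fold change 0.16, SE 0.03, adjusted p = 0.0061), Prkar1a (-0.19, SE 0.03, adjusted p = 0.00122) and Pde8b (-0.28, adjusted p = 0.0173) still passed, and Adcy9 (-0.22, adjusted p = 0.00627) and Pde6d (-0.11, adjusted p = 0.0471) did so in addition. Prkacb was then -0.10 and Prkar1b 0.04 over both labels, also not passing, while under the control label Atf4, Pde4a, Prkaca, Prkacb and Prkar1a passed. The background was then 18.3% under the control label and 8.88% under the cKO label. Those passing under the cKO label were then Prkar2b as higher and Adcy1, Adcy9, Atf4 (-0.30, adjusted p = 0.0155) and Pde6d as lower, and the calls there for Atf2, Crem, Pde7b, Prkaca, Prkar1a and Prkar1b were lost (adjusted p from 0.0573 to 0.56).

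**Figure D5:**
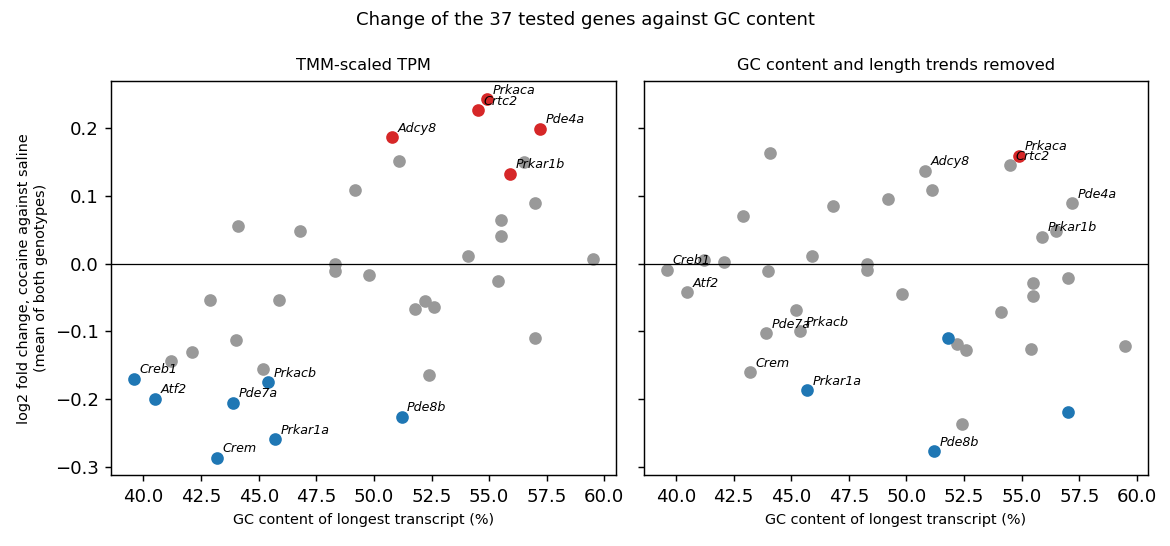
Log2 fold change of cocaine against saline over both labels (y axis) against the GC content of the longest transcript in percent (x axis) for the 37 tested genes, on TMM-scaled TPM (left) and with GC content and length trends removed (right); red and blue points passed the test. On the left the 5 red points lie at 50.8% GC or above and 6 of the 7 blue points below 46%, and on the right Prkaca stays above 0 and Prkar1a and Pde8b below; in the TPM as deposited the red points of the left panel are below 0.

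Other genes of the pathway were described by lists, beside the background of 15.8% higher and 16.5% lower over both labels. Of 20 tested G proteins and their regulators, 5 passed as higher and 2 as lower (median log2 fold change 0.00, as for all genes), among them Gnao1, the major brain Go subunit, at 0.23 (adjusted p = 0.0006) and Gnai3, an inhibitory subunit, at -0.31 (adjusted p = 0.00245). Of 19 PKA anchors and inhibitors, 3 were higher and 3 lower: the anchoring protein genes Akap12 at 0.46 (adjusted p = 0.000177) and Akap11 at -0.27 (adjusted p = 6.56e-05), and the PKA inhibitor gene Pkia at -0.32 (adjusted p = 0.000659), were among them. Of 7 other cAMP effectors 1 was higher, the pacemaker channel gene Hcn4 at 0.27 (adjusted p = 0.0242). Of 9 genes of the phosphatase side 1 was higher and 3 lower, led by Ppp1cb, a catalytic subunit of protein phosphatase 1, at -0.33 (adjusted p = 1.57e-05). With GC and length trends removed, 19.8% of all genes passed over both labels in place of 32.3%. The counts of higher and lower genes were then 2 and 1 for the G protein list, 4 and 2 for the anchors and inhibitors, 0 and 0 for the other effectors and 2 and 1 for the phosphatase side. In the TPM as deposited 0 genes of these 4 lists were higher, and 16, 15, 5 and 7 were lower. The median gene was itself lower there, and the share of all genes passing was not counted.

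Of 18 CREB partners and kinases 9 passed as higher and 2 as lower (median 0.08 against 0.00 for all genes). The CREB binding protein gene Crebbp stood at 15.8, 19.1, 17.5 and 18.5 scaled TPM in control saline, 22.0, 22.5, 21.4 and 24.5 in control cocaine, 18.7, 18.6, 18.3 and 18.5 in cKO saline libraries and 23.6 and 25.4 in those of cKO cocaine. After scaling, its groups did not overlap between treatments (log2 fold change 0.37, SE 0.04, adjusted p = 7.93e-05 by limma). Its levels before scaling were not compared. With GC and length trends removed (19.8% of all genes passing), 5 of the list were higher and 2 lower. In the TPM as deposited, with no share of all genes counted, 0 were higher and 12 lower. In the 10 libraries whose title and genotype tag agree, likewise without that share, 5 were higher and 0 lower.

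Of 22 tested CREB target genes 9 passed as higher and 0 as lower (median 0.22 against 0.00 for all genes). Egr1 (0.63), Per2 (0.42), Per1 (0.59) and Sgk1 (0.55) had the smallest adjusted p-values, 0.000142, 0.00017, 0.000374 and 0.00802. Egr1 stood at 7.44, 8.83, 8.21 and 9.97 scaled TPM in control saline, 12.2, 12.3, 13.4 and 17.5 in control cocaine, 7.95, 8.46, 8.37 and 8.81 in cKO saline libraries and 13.5 and 12.8 in those of cKO cocaine. These scaled values were apart between treatments, and the levels before scaling were not compared. With GC and length trends removed (19.8% of all genes passing) 6 were higher and 0 lower. In the TPM as deposited, with no share of all genes counted, 2 were higher and 3 lower. Leaving out 1 library gave 4 to 10 passing genes, the lowest without cKO cocaine replicate 2. In the 10 libraries whose title and genotype tag agree, again with no share of all genes counted, 3 were higher and 0 lower. The interaction of cocaine and genotype label, which rests on cocaine labels that Maged1 contradicts, passed for 3 of 95 tested genes of the 6 lists (background 1.28%): Rgs4, a regulator that shortens G protein signals (-0.95, adjusted p = 0.0498), the CREB kinase gene Camk4 (-0.84, adjusted p = 0.0262) and Rps6ka2 (0.66, adjusted p = 0.0448). With the cocaine labels exchanged these were 0.12, -0.05 and -0.19, and 0 of the 3 passed (adjusted p of 0.751 or more).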

How the data were processed

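RNA of whole thalamus was sequenced from ribosomal RNA-depleted, stranded, paired-end libraries. Per the labels and the study's methods, reads were aligned with STAR (2.5.3a) to GRCm38 and quantified with salmon, and the authors deposited 1 table of TPM per library with gene symbols (14 tables, 25080 genes). In 2 of the deposited tables (control saline replicate 4 and cKO cocaine replicate 1) decimal commas were read as decimal points. The listed TPM summed to between 312659 and 377401 per library. The study's methods give an approximate number of reads per sample, but the depth of each library is unknown.

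TMM factors were computed from all 25080 genes (unweighted, trimming 30% of log ratios and 5% of means at each side). For each factor, genes at 0 in that library or in the reference library were left out. Genes with at least 1 TPM in 3 libraries (13471) were then kept. The log2 of scaled TPM plus 0.5 was fitted with limma 3.58.1 (R 4.3.3; trended variance) as a model of 4 groups, since a count test does not suit TPM. P-values were adjusted by the Benjamini-Hochberg method over all genes tested in each of 6 contrasts, with 0.05 as the threshold, two-sided. Nothing in the labels says whether replicates are single animals or pools, so p-values measure the spread between these samples.

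Members, pathway lists and marker lists were chosen with earlier results of these data known. Members were named if past the threshold in any contrast, if highest in control saline within their family, or if just inside or outside the filter, and up to 4 genes of each list were named by smallest adjusted p. GC content and length were taken from GENCODE M21 transcripts (97.9% of tested genes matched). The scripts were tested on simulated data. Alternatives were scaling, pseudocount, filters, model, sample labels, a replicate block, GC and length trends, and leaving out each library. Also, 1 further adenylyl cyclase gene is not reported here.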

Additional observations from a re-analysis of the deposited data

Results flagged for a closer look

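In 3 of 51 groups of 4 libraries, 1 library lay far from the other 3 by Dixon's criterion, about what chance gives (1 in 20 groups). Pde4a in control saline replicate 1 was 13.7 scaled TPM against 14.9 to 15.1 in the others, Prkaca in control saline replicate 2 was 82.3 against 76.7 to 77.04, and Maged1 in control saline replicate 2 was 167 against 150.3 to 153.

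The effect of cocaine differed between the genotype labels, by the interaction in limma, for Adcy1 (log2 difference -0.87), Atf4 (-0.44) and Maged1 (2.26, adjusted p = 6.16e-05). Maged1 itself was higher with cocaine under the cKO label and lower under the control label, against the labels, so all 3 differences rest on labels that Maged1 contradicts. With the labels of the 2 cocaine groups exchanged they were -0.33 for Adcy1 (adjusted p = 0.675), 0.15 for Atf4 (0.698) and -0.05 for Maged1 (0.957).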

How the results depend on the processing

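The number of members past the threshold under the control label, under the cKO label, for the interaction and over both labels was 9, 8, 2 and 12. Median-of-ratios or quantile scaling and pseudocounts of 0.1 or 1 kept each within 1.5 times. In the TPM as deposited, without scaling, the counts were 23 (0 higher), 23 (0 higher), 0 and 33 (0 higher), and 1 for the genotype labels after saline. The median log2 fold change of all genes was then -0.34 under the control label and -0.35 under the cKO label. The share of all genes passing was not counted, so these counts are not results about the members. Members then negative in place of positive were Adcy8 (-0.16), Atf4 (-0.11), Pde4a (-0.09) and Prkaca (-0.12) under the control label, Prkaca (-0.13) and Prkar1b (-0.17) under the cKO label, and Adcy8 (-0.17), Crtc2 (-0.11), Pde4a (-0.16), Prkaca (-0.13) and Prkar1b (-0.24) over both; by construction these keep the shift of the median gene. With GC and length trends removed the counts were 5, 5 and 5 for the control label, the cKO label and both (background 18.3%, 8.88% and 19.8%). With genotype tags in place of titles they were 4 under the cKO label and 0 for the interaction, and with the 10 libraries whose title and tag agree 3, 4 and 0 for control label, cKO label and interaction. In the 4 saline libraries where title and tag differ, Maged1 followed the title. The fit of 10 libraries leaves those out and keeps all 6 cocaine libraries, whose labels Maged1 contradicts. With the labels of the cocaine groups exchanged, a choice made after seeing the data, the counts were 6, 10, 0 and 12, and the sign turned for Atf4 under the control label (-0.033) and for the interaction (0.15) and for Pde6d under the cKO label (0.043). A fit of the compared groups alone gave 5 under the cKO label. A fold change of at least 0.5 gave 0, 1, 1 and 0. Without the filter the interaction count was 1, without the variance trend it was 0, and with a mean of at least 5 TPM 1 member (Adcy1) passed between genotype labels after saline. Replicate numbers did not pair samples (mean correlation of deviations -0.01 over 18 same-numbered pairs and 0.00 over 54 others); the replicate block gave 8, 3, 0 and 12. Leaving out each library gave 6 to 11 under the control label, 1 to 9 under the cKO label, 0 to 1 and 0 to 0 between genotype labels after saline and after cocaine, 0 to 3 for the interaction and 7 to 14 over both. Without 1 cKO cocaine library, the lone remaining library is assumed to vary like the other groups. The causes of these changes were not tested. The share of all genes passing was counted only for the main fit and with GC and length trends removed. The other counts here thus have no background beside them. Low genes are limited by a depth that is not known for each library.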
